A study of Mus musculus with 6 samples.

Results

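The genes described here are the 4 Janus kinases (Jak1, Jak2, Jak3 and Tyk2), 4 of the signal transducers and activators of transcription (Stat3, Stat5a, Stat5b and Stat6) and 2 suppressors of cytokine signaling (Socs1 and Socs3). They were chosen by name, and all 10 were found by Ensembl identifier among the 39179 genes of the deposited expression table. Expression was measured by RNA-Seq in 3 pools of germinal center (GC) B cells and 3 pools of resting (naive) B cells, all sorted from ileal Peyer's patches of WT, female C57BL/6 mice aged 12 wk, and no group carried an allele or received an agent. Among cells gated as B cells, GC cells were sorted as Fas+GL7+ and naive cells as Fas-GL7-, and each pool came from 5 littermate mice. Naive cells defined in this way are B cells without the 2 GC surface markers, so the gate by itself does not part follicular from other resting or memory B cells.

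JAKs are tyrosine kinases bound to the cytoplasmic tails of cytokine receptors. When a cytokine brings receptor chains together, JAKs phosphorylate each other, the receptor and STATs, which then pair, enter the nucleus and bind DNA, while SOCS proteins, made in response, bind JAKs or receptors and shut the signal down. In B cells, IL-4 acts mainly through JAK1, JAK3 and STAT6, and IL-21, the helper cytokine of the GC, through JAK1, JAK3 and STAT3.

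Levels are TPM, the deposited FPKM of each pool rescaled to a total of 1000000, so that levels of different genes can be compared per transcript length. Differences are log2 fold changes of GC minus naive B cells on log2(TPM + 1), from a limma fit across 12785 genes that reached 1 TPM in at least 3 pools, with Benjamini-Hochberg adjusted p and a threshold of 0.05. The pools bore out their labels. The GC marker S1pr2 was at 261, 269.6 and 272 TPM across GC pools and 0.999, 0.671 and 0.697 TPM across naive pools. Ccr7, a marker of naive B cells, was at 1.25, 1.15 and 0.627 TPM across GC pools and 88.4, 95.6 and 78.8 TPM across naive pools. The B cell gene Cd79a was at 1057 TPM or more in every pool. FPKM steps of short genes gave approximate depths between 9900000 and 16200000 reads per pool, the deepest being naive replicate 2.

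Of the 10 genes, 7 were lower and 1 was higher in GC than in naive B cells. Stat6, Jak3 and above all Socs3 fell, Jak1, Tyk2, Stat3 and Stat5b fell by less, and Socs1 rose. Jak2 and Stat5a did not pass the test. All 10 genes were above 1 TPM in every pool, so none entered the test through one population alone. Among all genes tested, 65.6% passed in either direction, 35.5% as higher and 30.1% as lower in GC B cells, and 8 of 10 is to be read against the first of these shares and 7 of 10 against the last. The groups did not overlap in 8 of the 10 genes, against 70.7% of all genes tested. The median log2 fold change was -0.47 over the 10 genes and 0.03 over all genes tested. In bulk RNA, fewer cells that express a gene and less RNA per cell cannot be told apart.

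**Figure D1:**
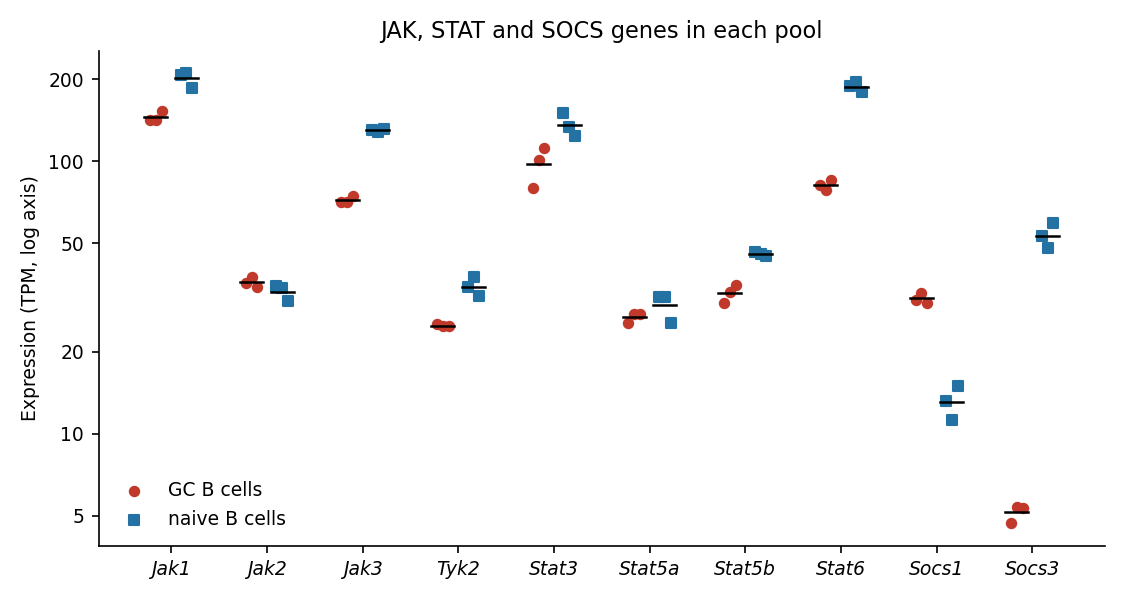
Expression of the 10 genes in TPM (vertical log axis), with 1 point per pool, GC in red circles and naive in blue squares, and a black line at the mean of 3 pools. The groups are farthest apart in Socs3, between 4.70 and 5.4 TPM for GC pools but between 47.8 and 59.1 TPM for naive pools, and overlap in Jak2 and Stat5a.

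Among the kinases, Jak1 was the most highly expressed. Jak1 (ENSMUSG00000028530; chr4:101151974-101265282, GRCm38) pairs with JAK2, JAK3 or TYK2 at most receptors for interferons, IL-6, IL-10 and the common gamma chain cytokines. It was at 141, 142 and 152 TPM for GC replicates 1, 2 and 3 and 207, 210.1 and 186 TPM for naive replicates 1, 2 and 3. Every GC pool was below every naive pool, with a log2 fold change of -0.47 (SE 0.06, adjusted p = 0.000697 in limma).

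Jak3 (ENSMUSG00000031805; chr8:71676383-71690577) encodes the kinase that binds the common gamma chain, and showed the largest difference of the 4 kinases. It was at 70.7, 70.8 and 74.4 TPM across GC pools and 130.3, 128 and 131 TPM across naive pools. The 2 sets of pools were tight and far apart, so that naive B cells held 1.80 times the GC level (log2 fold change -0.84, SE 0.04, adjusted p = 8.66e-06 in limma). In the NCBIM37 annotation, 404 exon bases of Jak3 (7.54%) are shared on the same strand with Insl3, which was at 26.7, 23.9 and 26.8 TPM across GC pools and 59.4, 54.3 and 62.7 TPM across naive pools. Reads in that stretch were divided between both genes by the quantification model, and the part of this division in the Jak3 values was not tested. A further 288 bases lie opposite Gm9933, which was below 1 TPM in every pool. Overlaps with exons on the opposite strand were small for the other genes, the longest being 72 bases between Stat3 and Stat5a and 40 bases between Stat6 and Nab2.

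Tyk2 (ENSMUSG00000032175; chr9:21104068-21131393) encodes the partner of JAK1 at the receptors for type I interferon and IL-10. It was at 25.2, 24.8 and 24.8 TPM across GC pools and 34.4, 37.5 and 31.9 TPM across naive pools. It was lower in all GC pools, by a log2 fold change of -0.45 (SE 0.07, adjusted p = 0.00176 in limma).

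Jak2 (ENSMUSG00000024789; chr19:29251803-29313095) encodes the kinase of the IFN-gamma receptor chain Ifngr2 and of the beta common and erythropoietin receptors. Its values were 35.9, 37.7 and 34.4 TPM across GC pools and 34.8, 34.2 and 30.7 TPM across naive pools. The groups overlapped, and the log2 fold change of 0.11 had a 95% interval from -0.06 to 0.29 (adjusted p = 0.213 in limma). A difference as large as that of Jak1, in either direction, lies outside this interval. The sign turned to -0.094 in an alternative that adjusted for base composition and length of the transcripts, so no direction is given.

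The 4 kinases summed to 278 ± 7.09 TPM (SD, n = 3) for GC and 399 ± 16.5 TPM for naive B cells. Jak1 made up 52.2 ± 0.958% of this sum in GC and 50.4 ± 1.17% in naive B cells, and Tyk2 8.97 ± 0.286% and 8.67 ± 0.407%. The share of Jak3 was 25.9 ± 0.145% in GC and 32.6 ± 1.65% in naive B cells, while that of Jak2 was 13.0 ± 0.853% and 8.34 ± 0.237% (SD, n = 3 for each). The pool ranges of the shares of Jak1 and Jak2 (higher in GC) and of Jak3 (lower in GC) did not overlap between the populations, and those of Tyk2 did.

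**Figure D2:**
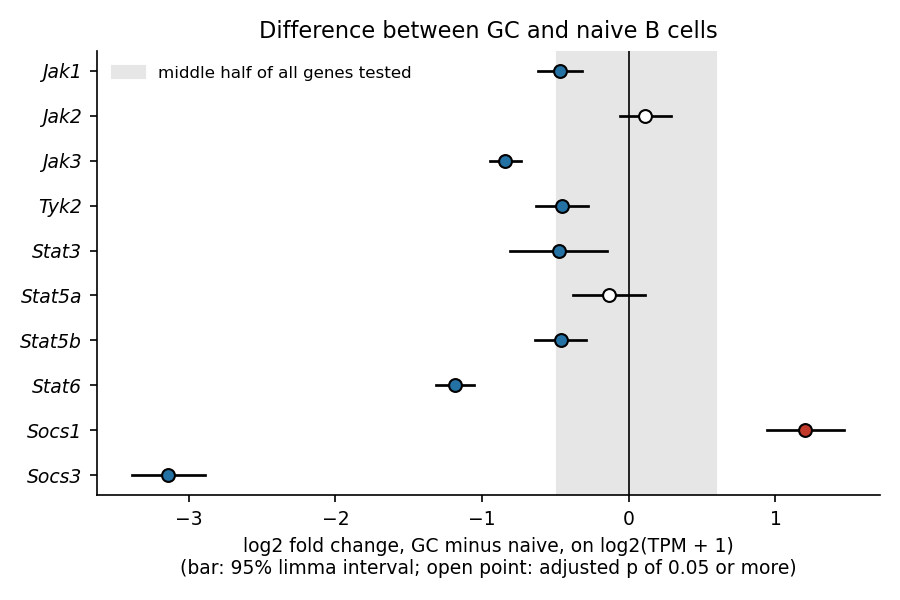
Log2 fold change of GC minus naive B cells on log2(TPM + 1) for each gene, with its 95% limma interval as a bar; filled points passed an adjusted p of 0.05 (red higher, blue lower in GC) and open points did not. The gray band spans the lower to the upper quartile of all genes tested, from -0.49 to 0.59, and Jak3, Stat6, Socs1 and Socs3 lie outside it with their whole intervals.

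Among the STATs, the largest difference was that of Stat6, which transmits the signal of IL-4 and IL-13. Stat6 (ENSMUSG00000002147; chr10:127642955-127660987) was at 82.0, 78.2 and 85.4 TPM across GC pools and 188, 195 and 179 TPM across naive pools. Naive B cells were 2.29 times the GC level with no overlap between pools (log2 fold change -1.18, SE 0.05, adjusted p = 5.10e-06 in limma).

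Stat3 (ENSMUSG00000004040; chr11:100886806-100939594) transmits the signals of IL-6, IL-10 and IL-21. It was at 79.8, 101 and 112 TPM across GC pools and 150.2, 133 and 123 TPM across naive pools. The GC pools lay below the naive pools, but with the widest spread among GC pools of the 10 genes, a coefficient of variation of 16.7%, with GC replicate 1 lower than the others. The log2 fold change was -0.48 (SE 0.14, adjusted p = 0.0200 in limma). This call was lost without naive replicate 1 (-0.40, adjusted p = 0.0635 in limma) or without naive replicate 2 (-0.49, 0.0512).

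STAT5, which carries signals of IL-2, IL-7, GM-CSF and prolactin, is encoded by the neighboring paralogs Stat5a (ENSMUSG00000004043; chr11:100859351-100885169) and Stat5b (ENSMUSG00000020919; chr11:100780731-100859004). Their transcripts are alike enough that short reads cannot always be assigned. In the longest NCBIM37 coding transcript of each gene, 15.8% of the 50-base words of Stat5a occur in Stat5b and 11.8% of those of Stat5b in Stat5a. In the same search, the longest coding transcripts of the other 8 genes held no word of another coding gene. Their other transcripts were not searched, and so not the Jak3 exon bases shared with Insl3. The longest identical run has 324 bases and lies within both coding sequences, at bases 904 to 1227 of the Stat5a transcript and 1058 to 1381 of the Stat5b transcript. Its first 150 bases (904 to 1053 and 1058 to 1207, respectively) are shown because a read that falls inside them fits both genes equally well.
Stat5a and Stat5b, first bases of the shared coding run: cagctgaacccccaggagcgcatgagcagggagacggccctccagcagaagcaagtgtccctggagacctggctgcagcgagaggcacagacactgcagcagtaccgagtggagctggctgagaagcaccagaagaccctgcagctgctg

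Stat5b was at 30.1, 33.1 and 35.2 TPM across GC pools and 46.4, 45.5 and 44.7 TPM across naive pools. It was lower in every GC pool (log2 fold change -0.46, SE 0.07, adjusted p = 0.00136 in limma). Stat5a was at 25.5, 27.5 and 27.5 TPM across GC pools and 31.8, 31.7 and 25.4 TPM across naive pools. The groups overlapped, with naive replicate 3 at the GC level, and the log2 fold change of -0.13 had a 95% interval from -0.38 to 0.11 (adjusted p = 0.292 in limma). Without naive replicate 3, Stat5a passed the test as lower in GC B cells (-0.24, adjusted p = 0.0238 in limma).

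The log2 ratio of Stat5a to Stat5b within each pool compared both paralogs directly. It was -0.23, -0.26 and -0.35 in the GC pools and -0.53, -0.51 and -0.79 in the naive pools, so Stat5b exceeded Stat5a in every pool, and by less in GC B cells. The difference of 0.33 had p = 0.10 in a two-sided exact permutation test over pools, which is the smallest value that 3 against 3 pools allow, and the adjusted p over 3 ratios was also 0.10.

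The 4 STATs described here summed to 239 ± 21.3 TPM in GC against 398 ± 23.0 TPM in naive B cells (SD, n = 3). Stat6 took 34.4 ± 2.90% of that sum in GC and 47.1 ± 1.67% in naive B cells, and Stat3 40.6 ± 3.42% and 34.03 ± 1.78%. Stat3 and Stat6 were therefore at similar levels in GC B cells, where their pool ranges overlapped, whereas Stat6 was above Stat3 in every naive pool.

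SOCS1 and SOCS3 both inhibit JAKs and carry an SH2 domain and a SOCS box, through which they recruit a ubiquitin ligase. SOCS1 restrains mainly interferon and IL-4 signaling, and SOCS3 mainly signaling through gp130, the shared receptor chain of IL-6, to STAT3. The 2 genes went in opposite directions. Socs3 (ENSMUSG00000053113; chr11:117966079-117970336) was at 4.70, 5.4 and 5.35 TPM across GC pools and 52.9, 47.8 and 59.1 TPM across naive pools. The naive mean was 10.3 times the GC mean, with a log2 fold change of -3.14 (SE 0.10, adjusted p = 1.22e-06 in limma).

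Socs1 (ENSMUSG00000038037; chr16:10783808-10785536) was the only one of the 10 genes that rose in GC B cells. It was at 30.9, 32.9 and 30.3 TPM across GC pools and 13.1, 11.3 and 15.0 TPM across naive pools. Every GC pool was above every naive pool, and the GC mean was 2.39 times the naive mean (log2 fold change 1.2, SE 0.11, adjusted p = 0.000115 in limma). The order of the pair was thus inverted. The log2 ratio of Socs1 to Socs3 was 2.49, 2.41 and 2.30 in the GC pools and -1.93, -1.99 and -1.91 in the naive pools. The difference of 4.34 had p = 0.10 in the exact permutation test over pools, the smallest it can give, and an adjusted p of 0.10. Of the summed Socs1 and Socs3 level, Socs1 was 85.9 ± 0.915% in GC and 19.7 ± 0.596% in naive B cells (SD, n = 3).

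The promoter windows of both genes, 250 bases before to 50 bases after a RefSeq start site on GRCm38.p6, are shown because these genes moved in opposite directions. They were searched for TTCNNNGAA, the letters of a STAT dimer site, and for the same TTC and GAA parted by 4 bases in place of 3, the wider spacing that STAT6 prefers. Each motif is its own reverse complement, so both strands were covered. Capitals mark a match, and both genes lie on the minus strand, as does the printed sequence.
Socs3, chr11:117969317-117969616: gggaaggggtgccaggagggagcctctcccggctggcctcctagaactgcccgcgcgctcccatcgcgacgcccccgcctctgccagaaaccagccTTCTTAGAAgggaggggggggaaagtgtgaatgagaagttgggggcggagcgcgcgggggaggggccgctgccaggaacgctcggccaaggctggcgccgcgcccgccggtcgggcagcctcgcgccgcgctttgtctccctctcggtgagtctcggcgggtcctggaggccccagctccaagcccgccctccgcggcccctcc
Socs1, chr16:10785487-10785786: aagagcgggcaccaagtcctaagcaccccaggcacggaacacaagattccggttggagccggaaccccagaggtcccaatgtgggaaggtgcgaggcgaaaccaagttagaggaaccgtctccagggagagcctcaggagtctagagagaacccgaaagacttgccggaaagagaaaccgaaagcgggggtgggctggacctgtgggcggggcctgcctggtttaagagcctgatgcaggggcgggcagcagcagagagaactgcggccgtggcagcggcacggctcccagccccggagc

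The Socs3 window holds 1 match to TTCNNNGAA, TTCTTAGAA at bases 97 to 105 of the window. The Socs1 window holds neither motif. All 10 genes had at least 1 window, 12 in all, and the Socs3 match was the only one. Of 32851 promoter windows of this length, 8.3% hold TTCNNNGAA and 6.95% hold the wider motif. The Socs3 start site used here lies inside the annotated span of the gene. A match describes the letters and is no measured binding site.

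Markers of gut epithelium were detected in all pools, with higher sums in the naive pools. The 7 epithelial markers Epcam, Krt8, Krt18, Krt19, Krt20, Vil1 and Fabp2 summed to 51.9, 112 and 57.3 TPM in GC replicates 1, 2 and 3 and to 168, 135 and 130.4 TPM for naive replicates 1, 2 and 3. Of the 7, 5 were lower and 1, Krt18, was higher in GC B cells in the limma fit. Among all genes tested, 30.1% were lower and 35.5% higher. Myeloid markers (Lyz2, Csf1r, Itgam, Cd14, Emr1 and Fcgr1) summed to between 0.836 and 2.31 TPM for GC pools and between 3.96 and 7.07 TPM for naive pools, with Fcgr1 at 0 in all pools. T cell markers other than Lck summed to 4.06 TPM or less in every pool. Lck, also expressed in some B cells, was at 131 ± 4.56 TPM in GC against 65.5 ± 1.39 TPM in naive B cells. The part of these other cells in the differences of the 10 genes was not tested.

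**Figure D3:**
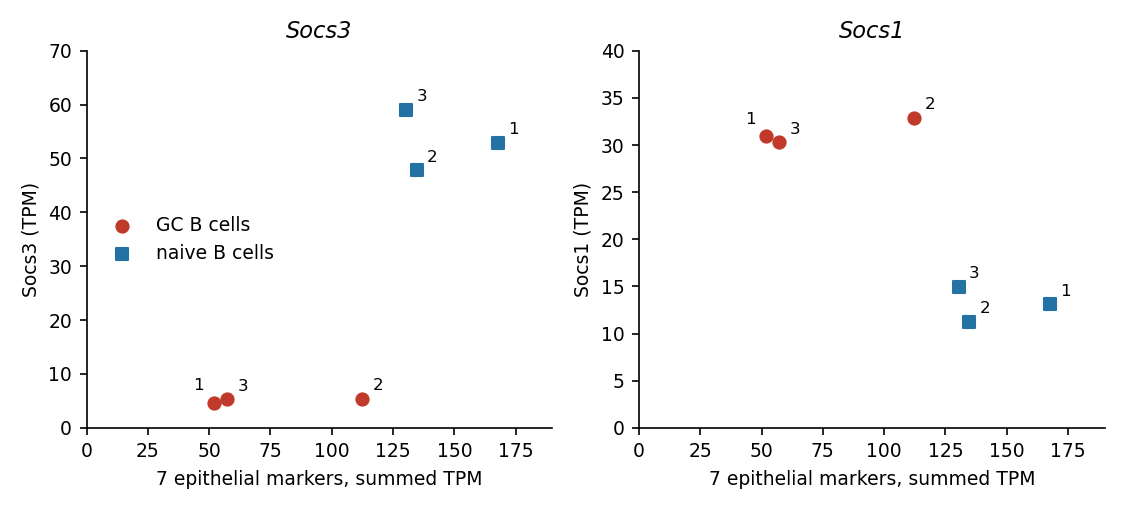
Socs3 (left) and Socs1 (right) in TPM against the summed TPM of 7 epithelial markers, with 1 point per pool, GC in red circles and naive in blue squares, numbered by replicate. The epithelial sums run from 51.9 to 112 TPM over the GC pools, highest in GC replicate 2, and from 130.4 to 168 TPM over the naive pools.

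Jak1 and Jak3 act together at common gamma chain receptors. Their log2 ratio was 0.99, 0.99 and 1.02 in the GC pools and 0.66, 0.71 and 0.51 in the naive pools. GC B cells held more Jak1 per Jak3, by 0.37 on the log2 scale (exact permutation p = 0.10, the smallest possible, adjusted p = 0.10).

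By level, the order of the 10 genes in GC B cells was Jak1, Stat3, Stat6, Jak3, Jak2, Stat5b, Socs1, Stat5a, Tyk2 and Socs3, from 145 down to 5.15 TPM. In this order, Stat3 and Stat6, Jak2 and Stat5b, and Stat5b and Socs1 overlapped in their pool ranges and do not differ beyond their spread. In naive B cells the order was Jak1, Stat6, Stat3, Jak3, Socs3, Stat5b, Tyk2, Jak2, Stat5a and Socs1, from 201 down to 13.1 TPM, with overlaps between Jak1 and Stat6, Stat3 and Jak3, Tyk2 and Jak2, and Jak2 and Stat5a. Socs3 ranked last in GC B cells and Socs1 last in naive B cells.

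The rest of the pathway was described with 13 lists of 86 genes, of which 63 passed the filter of 1 TPM. Of these 63, 10 reached 1 TPM in all pools of only one population and so entered the test through the population where they were high. Of the other 53, which were at 1 TPM or more in every pool, 15 (28.3%) were higher in GC B cells, 27 (50.9%) were lower and 11 did not pass the test, against 35.2% higher and 30.9% lower (66.1% in either direction) among the 10581 genes tested that were likewise at 1 TPM or more in every pool. The 10 cytokine ligands and the 6 homodimeric receptors listed, among them Epor and Prlr, did not pass the filter, and the highest value among them in any pool was 0.775 TPM.

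Cytokine receptor chains were mostly lower. Of 35 receptor chains, 23 were tested, of which 6 (Il2ra, Il15ra, Lifr and Il5ra through the naive pools, Il2rb and Il12rb1 through the GC pools) passed the filter in one population only. Of the other 17, 14 (82.4%) were lower and 2 (11.8%) were higher in GC B cells, against 30.9% and 35.2% of the 10581 genes at that level in every pool. All 6 interferon and IL-10 receptor chains were among those that fell. Il10ra, which binds JAK1, was at 2.28 ± 0.306 TPM in GC against 75.9 ± 6.12 TPM in naive B cells (adjusted p = 3.54e-07 in limma), and Il10rb, which binds TYK2, was at 9.05 ± 1.16 and 119 ± 2.31 TPM (4.56e-07). Ifngr2, which binds JAK2, fell from 108 ± 4.19 TPM in naive to 16.2 ± 1.61 TPM in GC B cells (8.99e-07), while Ifngr1 differed by only -0.20 on the log2 scale (0.0225). Il2rg, the common gamma chain that binds JAK3, was at 114 ± 7.90 TPM in GC against 376 ± 4.76 TPM in naive B cells, and Il4ra at 46.8 ± 0.438 and 129 ± 5.85 TPM (adjusted p = 1.38e-06 and 1.52e-06 in limma). Il21r stayed closer, at 180.03 ± 3.38 TPM in GC against 215 ± 2.37 TPM in naive B cells (adjusted p = 0.00103 in limma). The 2 chains of those 17 that rose were Il9r and Il3ra, with log2 fold changes of 0.89 and 0.75 (adjusted p = 0.000113 and 0.000303 in limma). Il2rb, the signaling chain of the IL-2 and IL-15 receptors, was at 5.82 ± 0.948 TPM in GC against 0.435 ± 0.155 TPM in naive B cells.

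**Figure D4:**
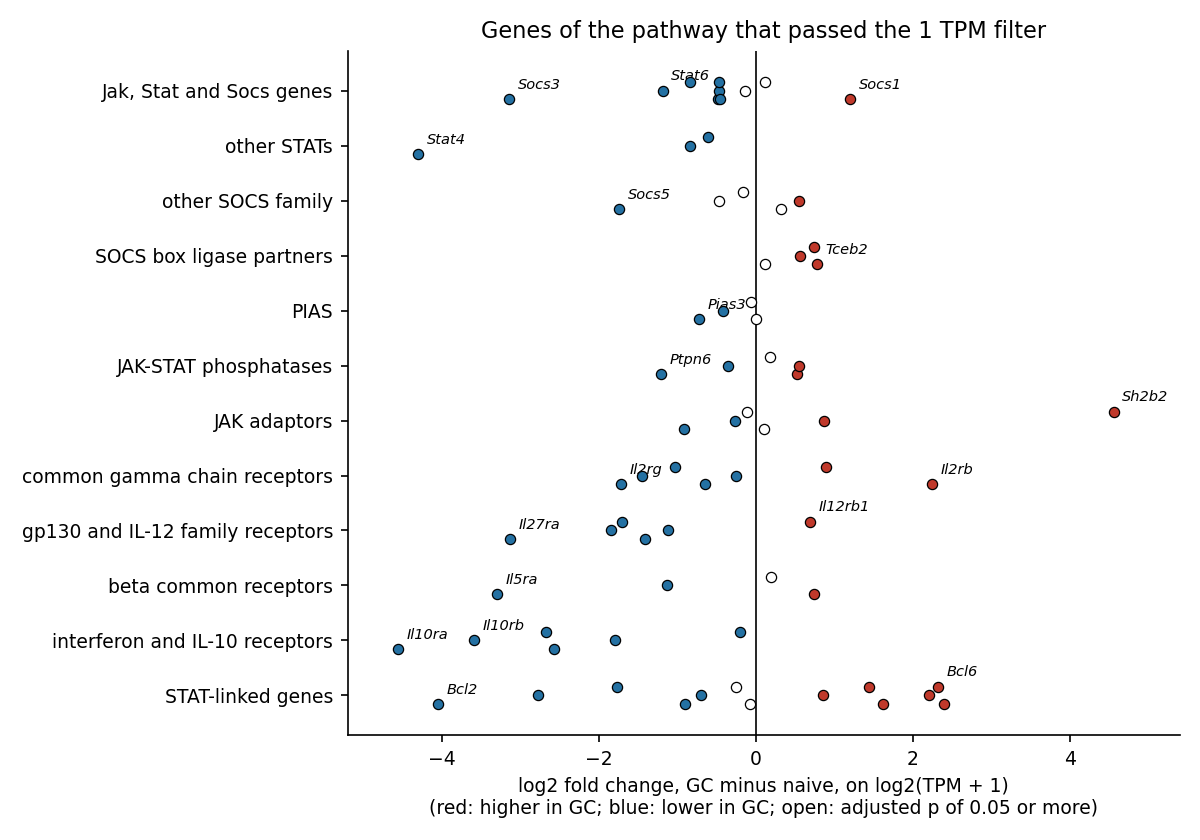
Log2 fold change of GC minus naive B cells on log2(TPM + 1) for the genes of each list that passed the filter, with 1 point per gene, red for higher, blue for lower and open for an adjusted p of 0.05 or more. The interferon and IL-10 receptors lie entirely on the lower side, down to -4.55 for Il10ra, and Sh2b2 stands at 4.56.

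Stat4, another STAT, which transmits IL-12 signals, was at 1.36, 0.664 and 0.906 TPM across GC pools and 37.2, 38.4 and 37.1 TPM across naive pools (log2 fold change -4.30 in limma). It passed the filter only through the naive pools, where it was high, so this difference is a description. Stat2, which acts in the type I interferon response, differed by -0.84 on the log2 scale (adjusted p = 6.66e-05 in limma).

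Of the other 6 SOCS family genes, 5 were tested. Socs5 fell, from 11.6 ± 0.661 TPM in naive to 2.77 ± 0.336 TPM in GC B cells (adjusted p = 2.34e-05 in limma), and Socs6 rose from 8.01 ± 0.423 to 12.2 ± 1.84 TPM (0.00813). Socs2, Socs4 and Socs7 did not pass the test, and Cish, a classical STAT5 target, was at 0.138, 0.0554 and 0.139 TPM across GC pools and 1.09, 0.520 and 0.581 TPM across naive pools, too low to be tested. Of the 4 partners of the SOCS box, elongin C (Tceb1), elongin B (Tceb2) and the RING protein Rnf7 rose, by 0.74, 0.78 and 0.56 on the log2 scale (adjusted p = 8.91e-05, 4.74e-05 and 0.00177 in limma), and the cullin Cul5 had a log2 fold change of 0.12 (0.453). Socs2 was at 0.544 TPM in GC replicate 3 and reached 1 TPM in all pools of the naive population only. The other calls in the SOCS family and its partners are to be read against the 10581 genes at 1 TPM or more in every pool. Of those, 35.2% were higher and 30.9% lower in GC B cells.

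Among other regulators, the phosphatases Ptpn1 and Ptpn2, which dephosphorylate JAKs and STATs, rose in GC B cells (log2 fold change 0.55 and 0.53, adjusted p = 0.00138 and 0.000177 in limma), whereas Ptpn6, encoding SHP-1, and Ptprc, encoding CD45, fell (-1.21 and -0.35, 0.00139 and 0.00136). The phosphatase gene Ptpn11 did not pass the test (log2 fold change 0.18, adjusted p = 0.101 in limma). Of the 4 PIAS genes, whose products inhibit STATs in the nucleus, Pias3 and Pias4 fell and the other 2 did not pass the test. Of the 6 adaptors, 2 rose, 2 fell and 2, Stam and Stam2, did not pass the test. Calls in the phosphatase, PIAS and adaptor lists are to be read against the 10581 genes at 1 TPM or more in every pool. Of those, 35.2% were higher and 30.9% lower in GC B cells (66.1% in either direction). Sh2b2 (APS) rose from 3.14 ± 0.753 to 95.8 ± 1.11 TPM and Cbl from 17.2 ± 3.36 to 31.8 ± 0.465 TPM, and Sh2b3 (LNK), an inhibitor of JAK2 signaling, fell by 0.91 on the log2 scale (adjusted p = 7.27e-07, 0.00173 and 4.42e-05 in limma). Sh2b1 fell by 0.26 on the log2 scale (adjusted p = 0.00598 in limma).

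Genes that STAT3, STAT5 or STAT6 are known to regulate were found in both directions. Of 13 such genes, 2 (Bcl2 and Prdm1) passed the filter in one population only, and of the other 11, 5 (45.5%) were higher, 4 (36.4%) were lower and 2 did not pass the test, against 35.2% and 30.9% of the 10581 genes at 1 TPM or more in every pool. Fcer2a, encoding CD23, a STAT6 target, was at 101 ± 5.10 TPM in GC against 697 ± 17.3 TPM in naive B cells, a difference that passed the test (adjusted p = 1.71e-07 in limma). Bcl2 was at 0.776 ± 0.0983 and 28.5 ± 2.89 TPM, and passed the filter only through the naive pools. Bcl6 was 5.08 times, Pim1 4.69 times and Bcl2l1 3.06 times as high in GC as in naive B cells (adjusted p = 3.34e-07, 6.69e-07 and 7.39e-05 in limma). Myc and Pim2 were among the genes that did not pass the test.

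The genes with values most like those of Socs1 and Socs3, the genes of the 10 with the largest rise and fall, were sought by the root mean square distance over the 6 log2(TPM + 1) values. Nearest to Socs1 were Ccne1, Gm9803 and Mbip, at distances of 0.0990, 0.110 and 0.146. Nearest to Socs3 were Irgm1, Pglyrp1 and Serpina3g, at distances of 0.184, 0.194 and 0.225. Irgm1, an interferon-inducible GTPase, was at 4.55, 6.89 and 5.64 TPM across GC pools and 47.8, 47.7 and 48.2 TPM across naive pools. Among all 12785 genes tested, 158 had a larger fall than Socs3 and 1518 a larger rise than Socs1.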

How the data were processed

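RNA was taken from sorted GC and naive B cells of Peyer's patches, in 3 pools per population. Per the paper's methods, the authors removed adapters with cutadapt 1.9, and ran RSEM 1.2.25 against NCBIm38 v75 mouse transcripts, with a mean fragment length of 180. The deposited values are FPKM per gene and pool, with 2 decimals, so their precision at low levels is limited and reads shared by similar or overlapping genes were divided by the RSEM model; no strand setting was stated. The submitters' notes also name edgeR, with no role.

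FPKM of each pool was rescaled to a total of 1000000 (TPM). Symbols came from the reference gene table, which named 33398 of 39179 identifiers. Both populations were fitted with limma 3.58.1 (R 4.3.3; lmFit, eBayes with a trend) on log2(TPM + 1), a scale that understates differences of weakly expressed genes, over genes that reached 1 TPM in 3 or more pools, with Benjamini-Hochberg adjustment over all genes tested. The fit was tested on simulated data in which 200 genes were changed. It recovered 22.5% of them at a log2 fold change of 0.5 and 75% at 1. In the real data 65.6% of genes passed, and the adjustment is stricter where few genes differ. These recovered shares therefore do not carry over to the real fit. With no change simulated, 1 of 12785 genes was called. A gene that did not pass may still differ by 0.5 or 1 on the log2 scale where its limma interval includes that value. In the main fit, the intervals of Jak2 (-0.06 to 0.29) and Stat5a (-0.38 to 0.11) included neither value in either direction. Depth was approximated from the FPKM steps of single-transcript genes, of which between 61.5% and 70.9% of values lay within 0.1 of a whole read, so no count test was used and no counting interval is given. Gene positions and promoter sequences are RefSeq's on GRCm38.p6, and shared words and exons were taken from NCBIM37 transcripts. Other steps used Python 3.11.15 with pandas 2.3.3, numpy 2.4.6 and matplotlib 3.10.9.

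The 10 genes, the lists and the tests were chosen with earlier results of these data known. The text names all 10 genes, genes of the lists, and the 3 genes nearest to the largest rise and the largest fall. The pool numbers 1 to 3 recur in each population, without a statement that they share mice, so pools were not treated as pairs in the main fit. The deviations of same-numbered pools from their group means correlated with r between 0.02 and 0.08, and 5 of 6 pools correlated best with their own number. Whether the pools are pairs cannot be told from these values. A fit with the replicate number as a block is given below. Alternatives covered the pseudocount (0.1 and 0.01), filters, scaling, the trend, the replicate number and each pool left out. The adjustment for base composition and length was chosen after seeing the data. Some genes of the lists are not reported here by name.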

Additional observations from a re-analysis of the deposited data

How the results depend on the processing

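Of 228 values computed under alternative settings for the counts, the 10 genes and the 3 ratios, 222 kept their direction and side of the threshold (or, for counts, lay within 1.5 times). Jak1, Jak3, Tyk2, Stat5b, Stat6, Socs1 and Socs3 kept theirs in every alternative run, and Socs3 ranged from -3.37 to -3.05 and Socs1 from 1.11 to 1.297 on the log2 scale. The sign of Jak2 reversed to -0.094 once values were adjusted for base composition and length of transcripts, both with the replicate block (adjusted p = 0.229 in limma) and without it (0.176); that correction moved the median of the 11031 genes it covers (86.3% of those tested) by -0.12. With the replicate block, Stat3 kept its log2 fold change of -0.48 but had an adjusted p of 0.0526; 7960 genes and 7 of the 10 were called, against 8392 and 8, and 5 of 6 pools correlated best with the pool of their own number. Leaving out 1 pool at a time gave Jak2 between 0.059 (without naive replicate 3) and 0.15, Stat3 between -0.58 and -0.34 (adjusted p between 0.0124 and 0.0635) and Stat5a between -0.24 and -0.080 (between 0.0238 and 0.577), and between 7 and 9 of the 10 genes and between 7656 and 8101 genes in all were called. The share of calls higher in GC B cells was 54.1%, 47.8% under quantile normalization and 45.9% under the adjustment for base composition and length. Each exact test on a ratio can reach only 0.10. No ratio could therefore cross the threshold, and the ratios counted among the 222 kept only their direction. The cause of these changes was not tested.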

Other observations

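Some values fell outside the comparisons above. Ptpn6 differed among the GC pools, with 625, 1058 and 703 TPM in replicates 1, 2 and 3, whereas the naive pools lay between 1728 and 1831 TPM. Flt3, a receptor tyrosine kinase listed as a dendritic cell marker, was at 31.4 ± 1.69 TPM in GC against 1.24 ± 0.205 TPM in naive B cells, while the other 3 dendritic cell markers, Itgax, Zbtb46 and Siglech, summed to 2.08 TPM or less in every pool. Pecam1 was at 23.3 ± 1.22 TPM in GC against 126 ± 5.55 TPM in naive B cells, and the other 4 stromal markers summed to 0.277 TPM or less. Of the 4 plasma cell markers, Prdm1 passed the filter only through the GC pools and Sdc1 only through the naive pools. Their differences are therefore a description. In the limma fit, Igj was higher and Xbp1 lower in GC B cells. Igj was at 669 ± 20.3 TPM and Prdm1 at 5.01 ± 0.280 TPM in GC B cells, against 33.3 ± 9.77 and 0.955 ± 0.107 TPM in naive B cells, while Sdc1 was at 1.51 ± 0.527 TPM in GC against 3.19 ± 0.526 TPM in naive B cells, and Xbp1 at 104 ± 1.54 and 119.9 ± 7.25 TPM (SD, n = 3 for each).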
